A study of Rattus norvegicus with 11 samples.

Results

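The Reg lectins and the epithelial defense oxidases were examined in the ileum of rats with severe acute pancreatitis (SAP) and of rats treated with JZL184, an inhibitor of monoacylglycerol lipase (MAGL). The 10 genes Reg1a, Reg3a, Reg3b, Reg3g, Reg4, Duox2, Duoxa2, Nox1, Nos2 and Dmbt1 were taken by symbol from the deposited tables, and all 10 were found among 24481 genes. Total RNA of ileal tissue from male SD rats, 6 to 8 weeks old, was sequenced in 3 control, 4 SAP and 4 JZL184 libraries. SAP was made by injection of 3% sodium taurocholate into the pancreatic duct (0.1 ml per 100 g). At 24 h after surgery the SAP and control groups received vehicle and the JZL184 group, which also had SAP, received 10 mg/kg JZL184 by intraperitoneal injection, and ileum was taken 24 h later. The treatment label of the control libraries names a control plasmid and the titles of the SAP libraries name oil, whereas the methods describe vehicle for both. Whether control rats were operated on is not given in the sources used here, so surgery and taurocholate cannot be told apart in comparisons with the control group. No group received JZL184 without SAP.

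Reg3b and Reg3g are secreted C-type lectins of the small intestine that bind bacteria, and Reg3g keeps Gram-positive bacteria away from the epithelium. Their genes are known targets of IL-22 and STAT3 signaling and of Toll-like receptor signaling in enterocytes and Paneth cells. DUOX2 is the dual oxidase that releases hydrogen peroxide at the apical face of the epithelium and needs its maturation factor DUOXA2 to leave the endoplasmic reticulum. NOX1 is the superoxide-producing oxidase known mainly from colon epithelium, and NOS2 is the inducible nitric oxide synthase. DMBT1 is a secreted scavenger receptor protein that binds bacteria and viruses.

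The start regions of 4 of the genes are shown. In these data Reg3b and Reg3g were among the most abundant transcripts, and their neighbor Reg3a had almost no reads. Duox2 is known to share its start region with Duoxa2, which was not examined in these data. RefSeq (assembly GRCr8) lists Reg3b, the pseudogene Reg3b-ps1, Reg3a, Reg1a, a long noncoding RNA and Reg3g in that order on chromosome 4, and it lists Duox2 next to Duoxa2 on chromosome 3. Promoter windows of 300 bases were found for 7 of the 10 genes, but not for Duoxa2, Nos2 or Dmbt1. Capitals mark TATAAA on either strand, the letters of a TATA box, and TTCNNNGAA, the palindrome of STAT-type sites.
Reg3b (chr4:112419526-112419825, plus strand): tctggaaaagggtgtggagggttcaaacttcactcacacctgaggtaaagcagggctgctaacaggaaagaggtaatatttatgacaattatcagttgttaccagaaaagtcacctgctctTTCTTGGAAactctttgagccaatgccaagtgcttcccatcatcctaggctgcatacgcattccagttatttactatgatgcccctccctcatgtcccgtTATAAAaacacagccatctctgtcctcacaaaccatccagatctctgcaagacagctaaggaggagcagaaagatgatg
Reg3g (chr4:112484689-112484988, minus strand): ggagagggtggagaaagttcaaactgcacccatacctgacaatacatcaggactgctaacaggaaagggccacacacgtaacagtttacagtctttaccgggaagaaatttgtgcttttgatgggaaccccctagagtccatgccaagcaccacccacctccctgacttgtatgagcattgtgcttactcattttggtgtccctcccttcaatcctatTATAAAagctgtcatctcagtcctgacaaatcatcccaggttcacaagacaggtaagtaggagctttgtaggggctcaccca
Reg3a (chr4:112430147-112430446, plus strand): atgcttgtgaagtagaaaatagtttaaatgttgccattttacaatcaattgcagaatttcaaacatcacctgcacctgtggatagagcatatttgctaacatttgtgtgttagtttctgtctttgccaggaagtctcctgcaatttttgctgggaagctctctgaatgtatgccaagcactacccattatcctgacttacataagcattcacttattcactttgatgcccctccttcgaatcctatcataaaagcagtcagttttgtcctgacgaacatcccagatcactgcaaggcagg
Duox2 (chr3:129698704-129699003, minus strand): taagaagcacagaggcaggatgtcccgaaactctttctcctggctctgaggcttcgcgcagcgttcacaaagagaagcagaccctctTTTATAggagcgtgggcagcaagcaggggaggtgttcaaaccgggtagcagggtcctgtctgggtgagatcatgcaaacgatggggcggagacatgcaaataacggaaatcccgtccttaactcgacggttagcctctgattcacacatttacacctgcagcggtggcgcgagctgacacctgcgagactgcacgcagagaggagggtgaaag
TATAAA began at position -29 from the annotated start of Reg3b and at position -32 of Reg3g, and the Reg3a window did not hold these letters. On the gene's own strand, TATAAA was found in 8.8% of all 33469 windows, and on either strand in 14.2%. In the Duox2 window it was found on the opposite strand, which is the strand of Duoxa2, with its first marked base at position -163. TTCNNNGAA was found at position -129 of Reg3b, and 8.87% of all windows held it. The windows of Reg3b and Reg3g had 68% identical bases over 291 aligned bases, those of Reg3a and Reg3b 70.7% over 259, and those of Reg3a and Reg3g 69.8% over 255. These matches describe letters in a window and do not locate a bound site.

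Between 26341299 and 33847135 reads per library lay on genes. The counts of control libraries 1 and 2 differed by little, with a chi-square of 2.81 per gene (genes with at least 20 reads), where the remaining pairs within groups had 77.5 to 563. Both were summed to 1 sample, which left n = 2 controls, and the labels do not say whether libraries came from separate rats. JZL184 library 3 stood apart from the others in markers of the tissue. Its 10 enterocyte markers summed to 1851 FPKM (fragments per length of gene and depth of library) against 6169 to 37312 in the other libraries, its 8 Paneth cell markers to 836 against 4011 to 17902, and its 6 colon markers to 519 against 8.88 to 46.1. JZL184 library 1 was the lowest in the 7 ileum markers (1035 FPKM), next to JZL184 library 3 (1147 FPKM), with up to 24389 FPKM in the others. SAP library 2 had 20 reads on 3 Y-linked genes, where the other libraries had 1222 to 4665, and 7826 reads on the Xist row, where the others had at most 56, although male rats are described. SAP libraries 1 and 2 had more signal on long genes than the other libraries: genes of at least 6706 bases exceeded genes of at most 1763 bases by 1.12 and 1.18 on the log2 scale relative to the mean of all libraries, and by between -0.63 and 0.33 in the rest. The 10 epithelial markers summed to 8656 to 22805 FPKM and the 8 smooth muscle markers to 385 to 2154 FPKM, so the libraries held tissue of the gut wall, while the cell label names intestinal epithelial cells. Of these, edgeR called the epithelial keratin Krt19 (log2 fold change -1.59 ± 0.30, adjusted p = 0.0418) and the smooth muscle gene Smtn (-1.84 ± 0.36, adjusted p = 0.0461) lower in JZL184 vs control. Krt19 was at 3682 to 4815 FPKM in the control libraries, 1239 to 3190 in the SAP libraries and 1350 to 1503 in the JZL184 libraries. Smtn was at 41.26 to 52.65, 23.27 to 43.69 and 7.13 to 18.48 FPKM. Of the 14 exocrine pancreas markers with FPKM values, 12 stayed below 1 FPKM in every library.

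Reg3b, a lectin of enterocytes and Paneth cells, was abundant and stayed at a like level in 10 of the 11 libraries. Its FPKM was 6245, 6222 and 4918 in control libraries 1 to 3, 6110, 5020, 6506 and 5015 in SAP libraries 1 to 4, and 4742, 6601, 47.7 and 3917 in JZL184 libraries 1 to 4. Only JZL184 library 3 fell outside a narrow band, with a level 117 times below the median of the other libraries. Without that library, the highest of the 9 remaining samples was 1.69 times the lowest. Reg3b was among the 12 highest genes by FPKM in all control and SAP libraries and ranked 1491 in JZL184 library 3. The group means were 5576 ± 930 FPKM (SD, n = 2) in the control group, 5663 ± 762 (n = 4) in the SAP group and 3827 ± 2758 (n = 4) in the JZL184 group, or 5087 ± 1375 (n = 3) without library 3. The log2 fold change was -0.16 ± 0.33 (SE) in SAP vs control, with an adjusted p of 0.808 in edgeR's quasi-likelihood test, and its sign changed with the scaling, to 0.34 with offsets for gene length. The value in JZL184 vs SAP was -0.35 ± 0.92 (adjusted p = 0.841, edgeR) and became 0.06 without JZL184 library 3. In bulk tissue, fewer cells of a type and less RNA per cell cannot be told apart.

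Reg3g, the other abundant Reg3 lectin, was likewise low in JZL184 library 3 alone. Its FPKM was 2398, 2257 and 1141 in the control libraries, 2311, 2123, 1566 and 1901 in the SAP libraries, and 1997, 1575, 22.7 and 1600 in the JZL184 libraries. The groups overlapped, and JZL184 library 3 was 85.8 times below the median of the others. Its log2 fold change was -0.01 ± 0.40 in SAP vs control (adjusted p = 0.988, edgeR), and -0.41 ± 0.87 in JZL184 vs SAP (adjusted p = 0.798). Reg3b and Reg3g together took 0.844% to 1.41% of the reads of each control library, 1.14% to 1.42% of each SAP library and 0.949% to 1.19% of JZL184 libraries 1, 2 and 4, but 0.0128% of JZL184 library 3. JZL184 library 3 still had 1126 reads on Reg3b and 2410 on Reg3g, so these levels were low but well measured. Over 10 samples the Pearson correlation of the pair was 0.99 on log2 CPM (reads scaled to library depth), but 0.28 without JZL184 library 3, so the high value rested on that library. Reg3g had more reads than Reg3b in every library (1.04 to 2.14 reads per Reg3b read) and yet a lower FPKM, because the tables imply a length of 3799 bases for Reg3g and of 846 bases for Reg3b. Which of the 2 genes had the higher level per length was therefore not settled. Reads shared with Reg3b-ps1 would have been dropped by unique alignment, and their number is unknown.

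**Figure D1:**
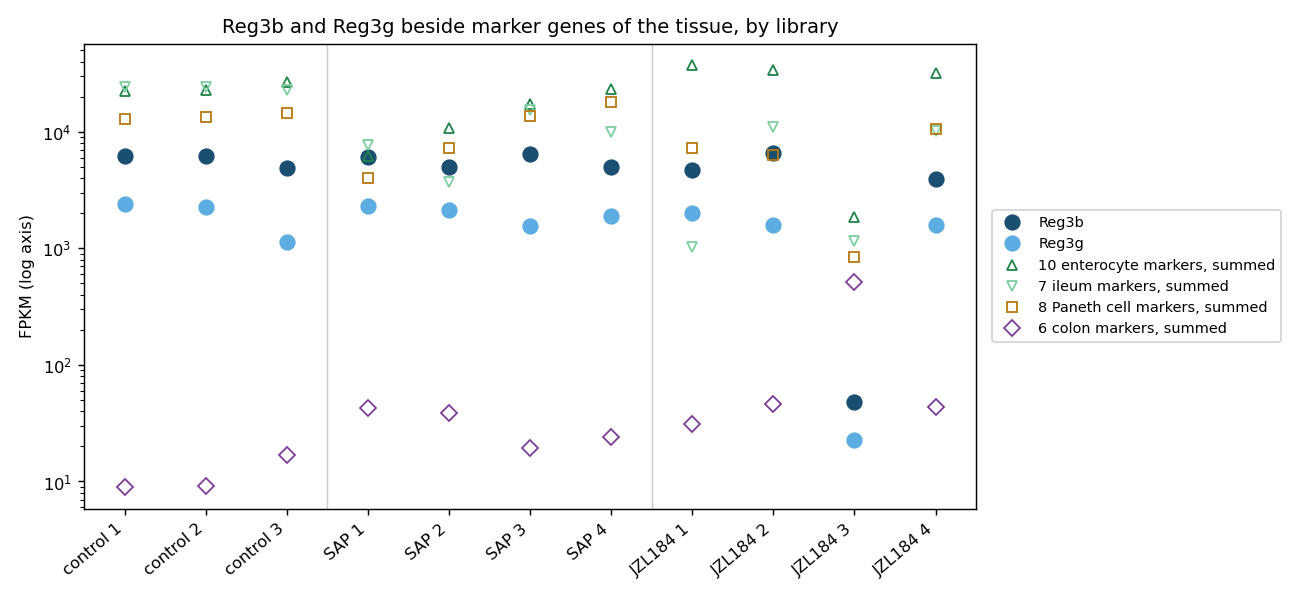
FPKM (log axis) of Reg3b and Reg3g (filled circles) in each of the 11 libraries, with the summed FPKM of enterocyte, ileum, Paneth cell and colon markers (open symbols). In JZL184 library 3, Reg3b was at 47.7 FPKM, the Paneth cell markers summed to 836 FPKM and the colon markers to 519 FPKM.

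The low Reg3b and Reg3g of JZL184 library 3 went with low markers of enterocytes, ileum and Paneth cells and with high colon markers, and the part of these in the result was not tested. Single markers moved by different amounts. Fabp6, the ileal bile acid binding protein, was at 79.9 FPKM in that library and at 410 to 21819 in the others. Defa24, a Paneth cell defensin, was at 54.7 FPKM against 2261 to 10330, and Car1, a carbonic anhydrase of colon epithelium, was at 478 against 0.17 to 24.5. JZL184 library 1 had Fabp6 at 410 FPKM, the highest sum of enterocyte markers (37312 FPKM) and Reg3b at 4742 FPKM.

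Reg4, a lectin of goblet and enteroendocrine cells, had lower values in SAP than in control libraries, without overlap, but the difference did not pass the threshold. Its FPKM was 213, 222 and 130 in the control libraries, 89.1, 55.2, 94.6 and 69.3 in the SAP libraries, and 36.3, 280, 216 and 52.1 in the JZL184 libraries. Every SAP library was below every control library, whereas the JZL184 libraries split, with libraries 2 and 3 high and libraries 1 and 4 below all SAP libraries. In SAP vs control, groups did not overlap for 22% of all genes. The means were 174 ± 62.3 FPKM (SD, n = 2), 77.0 ± 18.2 (n = 4) and 146 ± 121 (n = 4). The log2 fold change in SAP vs control was -1.36 ± 0.36 (unadjusted p = 0.00569, adjusted p = 0.459, edgeR; adjusted p = 0.0968, DESeq2). It was called only by DESeq2 with control libraries 1 and 2 kept apart (-1.48, adjusted p = 0.00163). With offsets for gene length it was -0.72 (adjusted p = 0.471), and without the merged control sample -0.85. The tables imply a length of 516 bases for Reg4, and SAP libraries 1 and 2 had more signal on long genes. The adjusted p ranged from 0.00163 to 0.943 over the alternatives. In JZL184 vs SAP the log2 fold change was 1.13 ± 0.62 (adjusted p = 0.305, edgeR), and 0.48 without JZL184 library 2. The 8 goblet cell markers summed to 4344 to 4594 FPKM in the control libraries, 2547 to 4460 in the SAP libraries and 1875 to 6252 in the JZL184 libraries, and their part in the Reg4 values was not tested. Unlike Reg3b, Reg4 was 2.35 times its median of the other libraries in JZL184 library 3.

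Reg1a, a Reg lectin best known from the exocrine pancreas, was near the limit of detection. Its reads were 31, 27 and 21 in the control libraries, 16, 29, 11 and 37 in the SAP libraries, and 51, 3, 0 and 11 in the JZL184 libraries. The groups overlapped in every comparison, with log2 fold changes of -0.39 ± 0.60 (SAP vs control), -0.41 ± 0.96 (JZL184 vs SAP) and -0.81 ± 1.17 (JZL184 vs control), and adjusted p of 0.739, 0.821 and 0.687 (edgeR). The last value was -2.34 without JZL184 library 1 and -0.39 without JZL184 library 3. Reg3a had 2 reads in JZL184 library 2 and 0 reads in the other 10 libraries. A count of 0 allows up to 3 reads, or 0.0886 to 0.114 CPM, for counting error only. Reg3a had too few reads for a test, although its start region was as similar to those of Reg3b and Reg3g as these were to each other.

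Duoxa2, the maturation factor of DUOX2, had a higher mean in JZL184 than in SAP libraries, and the call depended on the tool. Its FPKM was 32.2, 33.7 and 18.3 in the control libraries, 30.9, 9.42, 12.7 and 15.1 in the SAP libraries, and 14.0, 130, 27.0 and 74.5 in the JZL184 libraries. JZL184 libraries 2 and 4 were above all SAP and control libraries, whereas libraries 1 and 3 lay within the range of the SAP libraries. The means were 25.6 ± 10.4 FPKM (n = 2), 17.0 ± 9.55 (n = 4) and 61.4 ± 52.7 (n = 4). The log2 fold change in JZL184 vs SAP was 2.12 ± 0.70 (unadjusted p = 0.0124, adjusted p = 0.149, edgeR), and DESeq2 called it at an adjusted p of 0.026. It stayed positive in all 23 alternatives, between 1.34 without JZL184 library 2 and 2.5 without SAP library 1. In SAP vs control the value was -0.79 ± 0.51 (adjusted p = 0.475), and in JZL184 vs control it was 1.29 ± 0.88 (adjusted p = 0.374), with 0.53 without JZL184 library 2. The value in SAP vs control was -0.30 with offsets for gene length.

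Duox2, the oxidase itself, did not show this difference. Its FPKM was 2.97, 2.88 and 2.06 in the control libraries, 11.9, 2.62, 1.97 and 1.98 in the SAP libraries, and 1.21, 4.41, 1.28 and 2.74 in the JZL184 libraries. SAP library 1 alone was high, and the other SAP libraries lay between 1.97 and 2.62 FPKM. Log2 fold changes were 0.66 ± 0.77 in SAP vs control (adjusted p = 0.658), -0.65 ± 0.66 in JZL184 vs SAP (adjusted p = 0.572) and -0.03 ± 0.59 in JZL184 vs control (adjusted p = 0.977, all edgeR). Without SAP library 1, the first 2 values changed sign, to -0.34 and 0.35.

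Set against Duox2, Duoxa2 differed between the groups in a pattern chosen after its values were seen. Duoxa2 had 10.8, 11.7 and 8.89 times the FPKM of Duox2 in the control libraries, 2.60, 3.60, 6.43 and 7.61 times in the SAP libraries, and 11.6, 29.5, 21.1 and 27.2 times in the JZL184 libraries. Every SAP library was below every control library and every JZL184 library, although no test was made of this ratio. JZL184 library 1 lay within the range of the control libraries. JZL184 libraries 1 and 3 had the lowest Duox2 of all libraries, at 1.21 and 1.28 FPKM. The tables imply a length of 11795 bases for Duox2 and of 1048 bases for Duoxa2, and SAP libraries 1 and 2, which had the lowest ratios, were those with more signal on long genes. The part of gene length in the ratio was not tested. With offsets for gene length, the log2 fold change of Duoxa2 in JZL184 vs SAP was 1.68 (adjusted p = 0.164) and that of Duox2 was -0.24 (adjusted p = 0.833, edgeR). Whether reads were assigned by strand is not given in the sources used here, so reads at the shared start of this divergent pair could have been assigned to either gene.

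**Figure D2:**
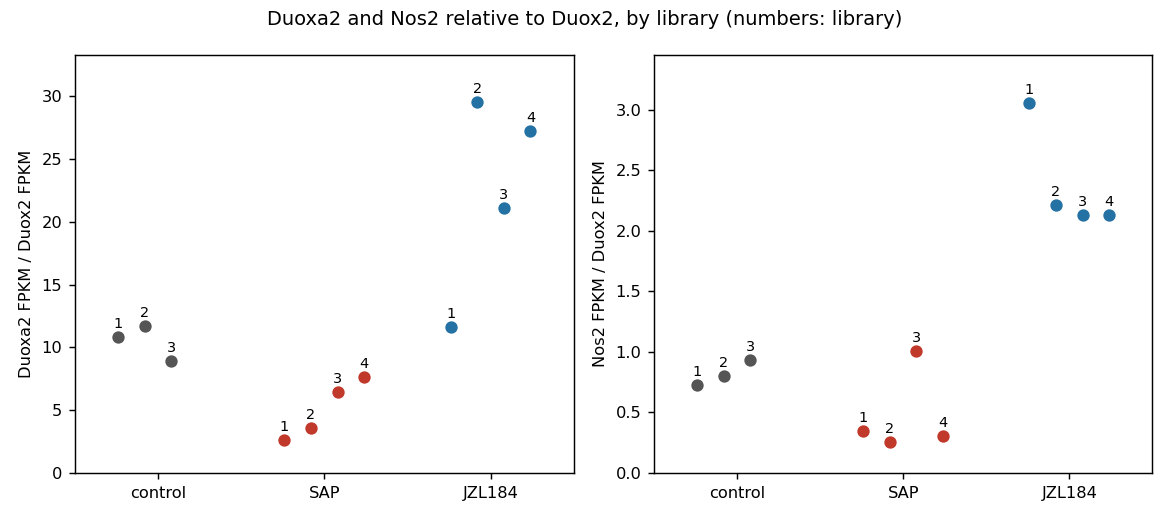
FPKM of Duoxa2 (left) and of Nos2 (right) divided by the FPKM of Duox2, 1 point per library with its number, by group. The JZL184 libraries lie between 11.6 and 29.5 for Duoxa2 and between 2.13 and 3.06 for Nos2, above all SAP libraries in both panels.

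Nox1, the superoxide-producing oxidase, had 0 to 10 reads per library and 31 reads over all libraries, with the highest count in SAP library 1, and could not be tested by edgeR. Among the other 12 measured genes of the NADPH oxidase family, which holds subunits of the phagocyte enzyme, regulators and the second dual oxidase, none was called by edgeR in any comparison (1 of 10 tested had an unadjusted p below 0.05 in JZL184 vs SAP, and 3 of 11 in JZL184 vs control; DESeq2 called 0). Duoxa1, the maturation factor of DUOX1, was at 0.08 to 0.38 FPKM and Noxo1, the organizer subunit of NOX1, at 0.90 to 6.04 FPKM, with log2 fold changes in JZL184 vs SAP of -0.33 ± 0.60 and -0.08 ± 0.53 (adjusted p = 0.761 and 0.939, edgeR). Cybb, the catalytic subunit of the phagocyte oxidase, was at 2.80 and 5.40 FPKM in SAP libraries 1 and 2 and at 0.04 to 0.83 FPKM in the rest.

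Nos2, the inducible nitric oxide synthase, was the only tested member whose JZL184 and control groups did not overlap, which held for 36.6% of all genes. Its FPKM was 2.15, 2.30 and 1.92 in the control libraries, 4.09, 0.67, 1.98 and 0.60 in the SAP libraries, and 3.70, 9.76, 2.73 and 5.83 in the JZL184 libraries. Every JZL184 library was above every control library, and SAP library 1 alone reached the JZL184 range. The means were 2.07 ± 0.216 FPKM (n = 2), 1.83 ± 1.63 (n = 4) and 5.51 ± 3.12 (n = 4). Its log2 fold change was 1.42 ± 0.58 in JZL184 vs control (unadjusted p = 0.0372, adjusted p = 0.165, edgeR; adjusted p = 0.0761, DESeq2; called by limma-voom at 0.0477). It was 1.85 ± 0.66 in JZL184 vs SAP (unadjusted p = 0.0183, adjusted p = 0.168, edgeR; called by DESeq2 at 0.0485). Both values stayed positive in all alternatives, from 0.90 to 1.67 and from 1.25 to 2.53. In SAP vs control the log2 fold change was -0.39 ± 0.73 (adjusted p = 0.787), and it lay between -1.09 (without SAP library 1) and -0.09 (without SAP library 2). Over 10 samples Nos2 and Duoxa2 had a Pearson correlation of 0.84, also without JZL184 library 3, as a description of samples that include the group difference. The 13 macrophage markers summed to 1395 to 1561 FPKM in control, 814 to 2512 in SAP and 569 to 1335 in JZL184 libraries. Lyz2 alone was at 989 to 1204, 643 to 2191 and 197 to 1120 FPKM, most of this sum in every library but JZL184 library 3. The 15 neutrophil markers summed to 2.28 to 4.28, 10.1 to 86.9 and 17.9 to 265 FPKM. S100a8 and S100a9 made up most of that sum in every SAP and JZL184 library. Of 10 neutrophil markers tested in JZL184 vs control, 5 were higher and 1 lower without overlap. The lower one was Mpo, at 0.33 to 0.56 FPKM in control and 0.08 to 0.25 in JZL184 libraries. In JZL184 vs control, where edgeR called 2.16% of all genes, it called 2 of the 13 macrophage markers higher. These were Cd163, a scavenger receptor, at 0.60 to 0.77 FPKM in the control libraries, 2.83 to 13.1 in the SAP libraries and 2.65 to 7.66 in the JZL184 libraries (log2 fold change 2.99 ± 0.55, adjusted p = 0.0398), and Mrc1, the mannose receptor, at 0.34 to 0.78, 2.24 to 5.98 and 2.08 to 3.93 FPKM (2.34 ± 0.46, adjusted p = 0.0454). In JZL184 vs SAP their log2 fold changes were 0.03 ± 0.49 and -0.13 ± 0.35 (adjusted p = 0.971 and 0.847, edgeR). The part of macrophages and neutrophils in the Nos2 values was not tested.

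Of the 14 genes of nitric oxide and arginine metabolism, edgeR called 1, in JZL184 vs control, where it called 2.16% of all genes. The gene called was Ddah2, an enzyme that degrades an inhibitor of nitric oxide synthases (log2 fold change -1.40 ± 0.28, adjusted p = 0.0489). It was at 18.4 to 22.5 FPKM in the control libraries, 4.46 to 17.8 in the SAP libraries and 6.12 to 9.98 in the JZL184 libraries. Gch1, the first enzyme of the synthesis of the cofactor tetrahydrobiopterin, had a log2 fold change of 1.13 ± 0.32 in JZL184 vs SAP (adjusted p = 0.117, edgeR; called by DESeq2 at 0.0263). Pts, another enzyme of this synthesis, went the other way, at 5.47 to 8.54 FPKM in SAP and 3.61 to 4.55 in JZL184 libraries. In that comparison, 1 tested gene of the list was higher and 1 lower without overlap, beside 11.2% of all genes. Of the 16 genes that make, use or remove peroxide, edgeR called Sod2, the mitochondrial superoxide dismutase, in JZL184 vs control (2.58 ± 0.43, adjusted p = 0.0285). Sod2 was at 53.3 to 58.6 FPKM in the control libraries, 88.8 to 220 in the SAP libraries and 221 to 429 in the JZL184 libraries. In JZL184 vs SAP, DESeq2 called 4 of the 16 genes of this list higher and 0 lower, and 6.98% of all genes in either direction. Lpo, lactoperoxidase, reached 141 FPKM in JZL184 library 3 and was at 0.10 to 13.5 FPKM in the others.

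Dmbt1, the scavenger receptor protein, was abundant and overlapped between all groups. Its FPKM was 279, 281 and 154 in the control libraries, 380, 369, 204 and 158 in the SAP libraries, and 371, 227, 624 and 97.9 in the JZL184 libraries. The highest and the lowest library were both in the JZL184 group, and the highest was library 3, in which Reg3b and Reg3g were lowest. Dmbt1 had a log2 fold change of 0.14 ± 0.45 in SAP vs control (adjusted p = 0.880), 0.41 ± 0.49 in JZL184 vs SAP (adjusted p = 0.635) and 0.51 ± 0.63 in JZL184 vs control (adjusted p = 0.629, edgeR). The second value became -0.05 without JZL184 library 3.

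**Figure D3:**
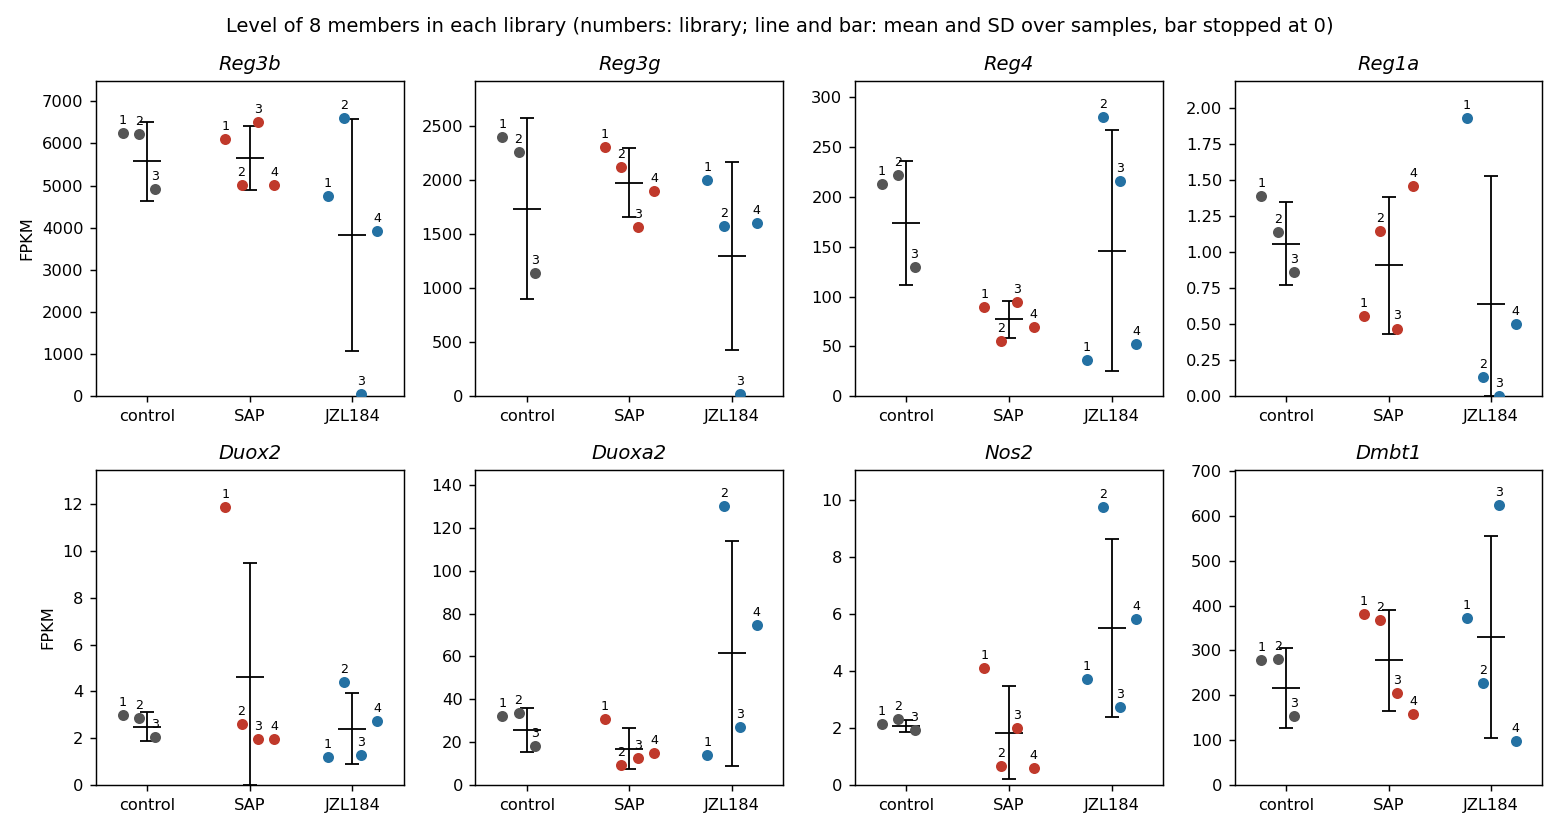
FPKM of the 8 members with enough reads for a test, 1 panel per gene with an axis from 0 and 1 numbered point per library, with the mean and SD over samples (control libraries 1 and 2 as 1 sample). JZL184 library 3 is the lowest for Reg3b and Reg3g and the highest for Dmbt1, and Reg4 in the SAP group lies below the control group.

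Over the 10 genes, 8 passed the filter on low counts in each comparison, and edgeR called 0 of the 8 in each. In SAP vs control, edgeR called 0% of 16029 genes, DESeq2 1.14% of 17857 and 0 members. An unadjusted p below 0.05 was reached by 1 member (Reg4) and by 9.09% of all genes, and groups did not overlap for 1 member (Reg4) and for 22% of all genes. In JZL184 vs SAP, edgeR called 0% of 15308 genes, although 21.3% had an unadjusted p below 0.05, as had 2 members (Duoxa2 and Nos2). DESeq2 called 6.98% of 18380 genes and these 2 members, and groups did not overlap for 11.2% of genes and for 0 members. In JZL184 vs control, edgeR called 2.16% of 15916 genes, DESeq2 11.7% of 16671, and neither called a member. An unadjusted p below 0.05 was reached by 26.3% of genes and by 1 member (Nos2), which was also the only member among the 36.6% of genes whose groups did not overlap. The median log2 fold change of the 8 members was -0.28, 0.03 and -0.15 in the 3 comparisons, beside 0.06, -0.05 and 0.08 over all genes tested. Apart from the DESeq2 calls in JZL184 vs SAP, the counts of members were near or below those of all genes. SAP vs control and JZL184 vs control share the control libraries, and SAP vs control and JZL184 vs SAP share the SAP libraries.

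**Figure D4:**
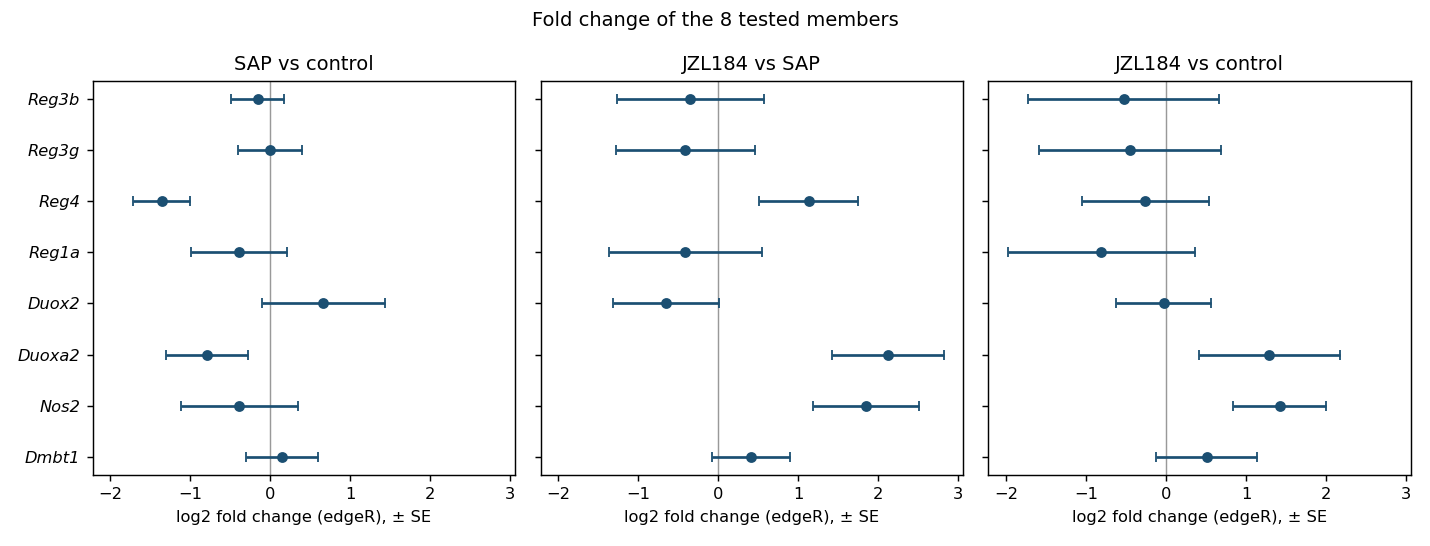
Log2 fold change of the 8 tested members in each comparison (edgeR, points) with its SE (bars); a value above 0 means higher in the group named first. Duoxa2 (2.12 ± 0.70) and Nos2 (1.85 ± 0.66) lie farthest to the right in JZL184 vs SAP, and Reg4 (-1.36 ± 0.36) farthest to the left in SAP vs control.

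Genes of IL-22 and IL-17 signaling were examined beside the members, and no test compared them with Reg3b or Reg3g. Of 25 such genes, which include cytokines, receptors and a feedback inhibitor, 23 were tested in JZL184 vs control, and edgeR called 5 higher and 0 lower: Socs3, Osmr, Il18, Il6 and Il22. Over all genes, edgeR called 2.16% in this comparison. DESeq2 called 9 genes of the list higher and 1 lower. Il22, the cytokine that induces Reg3 genes in epithelium, was at 0.06, 0.12 and 0.23 FPKM in the control libraries, 1.29, 0.17, 0.18 and 0.51 in the SAP libraries, and 18.5, 8.70, 1.22 and 13.6 in the JZL184 libraries. Its lowest JZL184 value, in library 3, was just below the highest SAP value. The log2 fold change was 6.04 ± 1.22 in JZL184 vs control (adjusted p = 0.0476, edgeR) and 4.43 ± 0.89 in JZL184 vs SAP (adjusted p = 0.0851, edgeR; called by DESeq2 at 5.11e-06). Il22ra1, a subunit of its receptor, was at 15.1 and 16.6 FPKM in SAP libraries 1 and 2 and at 0.54 to 6.49 FPKM in the rest. Socs3, a feedback inhibitor induced by STAT3, was at 12.8 to 19.2 FPKM in the control libraries, 14.0 to 44.2 in the SAP libraries and 111 to 173 in the JZL184 libraries (log2 fold change in JZL184 vs control 3.01 ± 0.37, adjusted p = 0.0149). Il6, an inflammatory cytokine that signals through STAT3, was at 0 to 0.21, 0.43 to 2.54 and 3.38 to 10.4 FPKM (6.18 ± 1.12, adjusted p = 0.0372). Ifng, a known inducer of Nos2, stayed at 0.06 to 0.92 FPKM and had too few reads for edgeR in JZL184 vs SAP and JZL184 vs control.

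Other epithelial defense genes that share inducers with the members were measured in the same libraries. Of 24 such genes, 18 were tested in JZL184 vs control, and edgeR called 4 higher and 0 lower: Steap4, Cxcl1, Lcn2 and Cxcl2. Over all genes, edgeR called 2.16% in this comparison. Lcn2, the siderophore-binding lipocalin, was at 1.57 to 3.25 FPKM in the control libraries, 29.3 to 100 in the SAP libraries and 100 to 504 in the JZL184 libraries. Its log2 fold change was 6.95 ± 0.87 in JZL184 vs control (adjusted p = 0.0155, edgeR) and 4.51 ± 0.64 in SAP vs control (adjusted p = 0.150, edgeR; called by DESeq2 at 1.11e-12). Cxcl1, a neutrophil chemokine, was at 218 to 411 FPKM in the JZL184 libraries and at 0.63 to 35.4 in the others. In JZL184 library 3, with the low Reg3b and Reg3g, Lcn2 was at 264 FPKM and Cxcl1 at 388 FPKM. The count of genes called in JZL184 vs control fell from 343 to 0 without the merged control sample, to 1 without control library 3 and to 25 without JZL184 library 2, so the calls named here depend on these libraries.

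**Figure D5:**
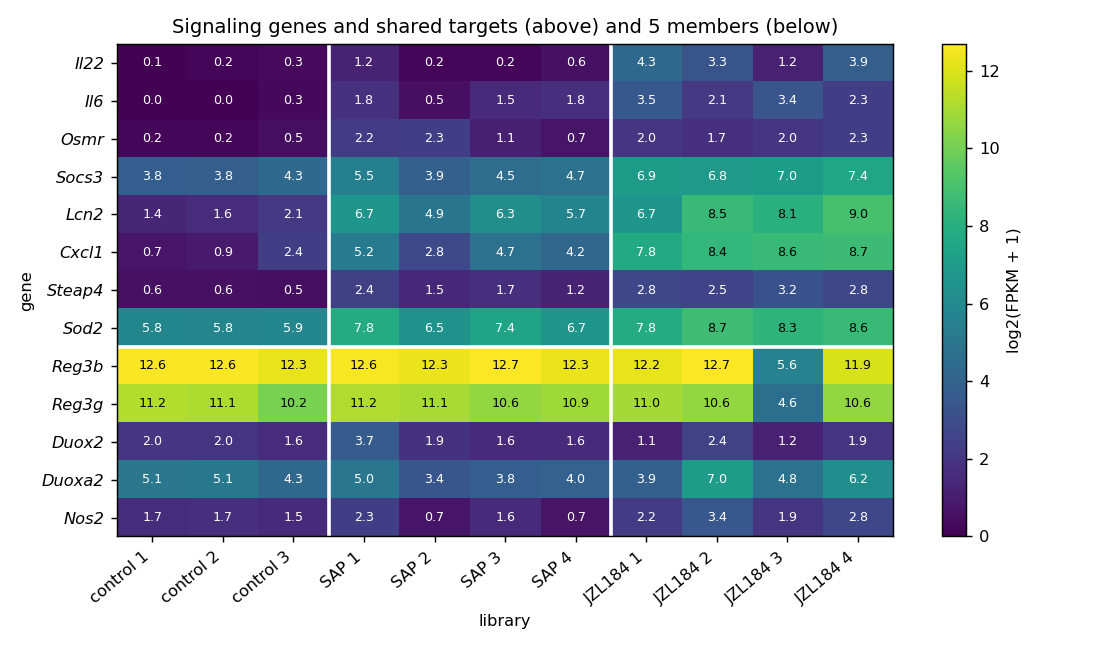
Log2(FPKM + 1) of cytokines, signaling genes, shared target genes and Sod2 (upper 8 rows) and of 5 members (lower 5 rows) in each of the 11 libraries (columns), with the value in each cell. Each of the upper 8 rows is a gene that edgeR called higher in JZL184 vs control. Il18 and Cxcl2, also called higher, and the other genes of their lists are not shown. Socs3, Lcn2 and Cxcl1 are highest in the JZL184 libraries, whereas Reg3b is between 11.9 and 12.7 in every library but JZL184 library 3, where it is 5.6.

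The genes most like each member were found by the Pearson correlation of log2 CPM over 10 samples, as a description. For Reg3b these were Nudt5 (0.988), Reg3g (0.986) and Ccl25 (0.981), a chemokine of the small intestine, and for Reg3g they were Nudt5 (0.987), Reg3b (0.986) and LOC120099785 (0.983). For the Reg3b and Reg3g pair the value rested on JZL184 library 3, and this was not computed for the other genes. For Reg4 the leading gene was Spink4 (0.921), a goblet cell product, followed by Vps18 (0.917) and Ndufa12 (0.915). For Duoxa2 they were Tmc5 (0.942), Crybg2 (0.937) and Polr3a (0.931), for Nos2 RGD1562885 (0.920), Met (0.874) and Sting1 (0.870), and for Duox2 Ipmk (0.840), LOC102549342 (0.827) and Ncald (0.824). Dmbt1 was most like Homer2 (0.886), Bcl7a (0.848) and Fgf1 (0.830), and Reg1a most like Got1 (0.950). Reg4 and Reg3b had a correlation of -0.23 over the 10 samples and of 0.89 without JZL184 library 3, and Duox2 and Duoxa2 had 0.49 and 0.54.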

How the data were processed

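Ileal RNA was made into stranded mRNA libraries and sequenced in 11 libraries. Per the study's methods, the authors cleaned reads with FASTX-Toolkit, aligned them to mRatBN7.2 with HISAT2 and deposited the count of uniquely aligned reads per gene, not normalized. The deposited FPKM values were calculated by the authors from these reads for gene length and library size, and are given to 2 decimals. Which tool counted the reads, its strand setting and its annotation is not given in the sources used here.

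Genes were compared with edgeR 4.0.16 (TMM, default filter with a minimum count of 10, quasi-likelihood test) in R 4.3.3 over all genes. A call needed an adjusted p (Benjamini-Hochberg) under 0.05 together with a change of over 2-fold up or down. Members, gene lists and tests were chosen with earlier results of these data known. Alternatives were DESeq2 1.42.0 (the study's tool), limma-voom (limma 3.58.1), limma on log2(FPKM + 1) or log2(FPKM + 0.1), other filters and scalings, offsets for each library's gene length trend (span 0.3), control libraries 1 and 2 kept apart, the replicate number as a block and each library left out. Fits without JZL184 library 3 in DESeq2, and without it and SAP library 2 in edgeR, were added after seeing the data. The main edgeR fit, DESeq2 and limma-voom were tested on simulated data, in which 200 genes were changed 4-fold. The other alternatives were not tested in this way. P-values measure the spread between libraries. The length of a gene was taken from its reads and FPKM.

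The rule for naming genes beside the members took the called genes of each list (at most 3 per comparison, or the 2 of smallest p where none was called), Il22, Il22ra1, Duoxa1, Noxo1, Lcn2, Il6 and Ifng, and the 3 genes most like each member. Fabp6, Defa24, Car1, Csf1r, C1qa, Lyz2, S100a8, S100a9, Mpo, Pts and called genes of a list beyond the third were named after their values were seen. Marker lists are given mainly by their sums, and not every gene the rule took is named. The results of the list of interferon and Toll-like receptor signaling are not reported here. Figures were drawn with matplotlib 3.10.9.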

Additional observations from a re-analysis of the deposited data

Results flagged for a closer look

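Within the SAP and JZL184 groups of 4 libraries, the highest or lowest library was set apart by the gap to its neighbor over the range of the group, against Dixon's critical value for 4 values. Chance flags about 1 in 20 groups, and 19 groups were examined on each of 2 scales. Reg3b and Reg3g in JZL184 library 3 had shares of 0.894 and 0.946 on the log2(FPKM + 1) scale, at 47.7 and 22.7 FPKM, and were not flagged on the FPKM scale. Duox2 in SAP library 1, at 11.9 FPKM, had a share of 0.934 on FPKM and 0.865 on the log2 scale. Nox1 in SAP library 1, with 10 reads, had a share of 0.889 on FPKM and 0.885 on the log2 scale. Reg3a in JZL184 library 2, with 2 reads, had a share of 1.0 on both scales because the other 3 libraries had 0 reads. The causes were not tested.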

How the results depend on the processing

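The 8 tested members in 3 comparisons had 510 values under the alternatives. Of these, 462 kept their direction and their side of the threshold, 8 passed it where the reported value did not, and 40 changed direction. Log2 fold changes of the opposite sign, all in comparisons whose groups overlapped, were as follows. In SAP vs control, Reg3g was 0.05 with limma-voom, 0.26 with limma on FPKM (both pseudocounts and without a filter), 0.01 with 10 reads in every library, 0.68 without the merged control sample and 0.07 without SAP library 3. Reg3b was 0.02 with limma on FPKM (all 3 forms), 0.34 with length offsets and 0.1 without the merged control sample. Reg1a was 0.08 with length offsets and 0.01 without the merged control sample. Duox2 was -0.08 with length offsets and -0.34 without SAP library 1. Dmbt1 was -0.18 with length offsets, 0 in DESeq2 with separate controls, -0.28 without control library 3 and -0.02 without SAP library 1. In JZL184 vs SAP, Dmbt1 was -0.24 with limma-voom and -0.05 without JZL184 library 3 in edgeR and DESeq2. Reg3b without JZL184 library 3 was 0.06 in edgeR and 0.07 in DESeq2, Reg3g without JZL184 library 3 was 0.01 in DESeq2, and Reg1a was 0.01 without JZL184 library 3 or SAP library 4 and 0.07 without JZL184 library 3 and SAP library 2. Duox2 was 0.35 without SAP library 1. In JZL184 vs control, Dmbt1 was -0.16 with limma-voom, and Reg3g was 0.23 without the merged control sample. Reg4 was 0.11 with length offsets and 0.23, 0.07 and 0.04 without the merged control sample, JZL184 library 1 and JZL184 library 4. Duox2 was 0.19 in DESeq2 without JZL184 library 3, and 0.31, 0.21 and 0.2 in edgeR without the merged control sample, JZL184 library 1 and JZL184 library 3. The cause was not tested.

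The counts of called genes depended on the tool. In SAP vs control, edgeR called 0 genes (1457 at an unadjusted p below 0.05), DESeq2 203, limma-voom 14, edgeR without a filter 14, with all groups in 1 fit 4, with separate controls 33, and DESeq2 with separate controls 1469. Leaving out 1 library gave 0 to 3. In JZL184 vs SAP, edgeR called 0 (3267 at an unadjusted p below 0.05), DESeq2 1283 and 806 without JZL184 library 3, limma-voom 699, limma on log2(FPKM + 1) 8 and on log2(FPKM + 0.1) 6, no filter 27, 1 fit 207 and length offsets 35. Leaving out 1 library gave 0 to 655, with 655 without JZL184 library 1. In JZL184 vs control, edgeR called 343, DESeq2 1956 and 2008 without JZL184 library 3, limma-voom 2906, limma without a filter 66, no filter 929, separate controls 2800 and 3498 (DESeq2). Leaving out 1 library gave 0 to 1867. Same-numbered JZL184 and SAP libraries had correlations of their deviations of 0.12, -0.44, -0.01 and -0.09, where other pairs had -0.34 to 0.40. Libraries of the same number thus showed no shared deviation. These values cannot tell whether such libraries were handled together. With the replicate block, 0 genes were called in JZL184 vs SAP. With the block and control libraries 1 and 2 kept apart, 1 gene was called in SAP vs control and 1488 in JZL184 vs control, where keeping them apart without the block gave 33 and 2800. No member was among the genes called with the block. Leaving out 1 library gave log2 fold changes in SAP vs control of -0.8 to 0.01 (Reg1a), -0.38 to 0.1 (Reg3b), -0.48 to 0.68 (Reg3g), -0.34 to 1.02 (Duox2) and -0.28 to 0.72 (Dmbt1). In JZL184 vs SAP the ranges were -1.9 to 0.01 (Reg1a), -0.84 to 0.06 (Reg3b), -1.21 to 0.35 (Duox2) and -0.05 to 0.71 (Dmbt1), and in JZL184 vs control -0.92 to 0.23 (Reg3g), -0.9 to 0.23 (Reg4) and -0.59 to 0.31 (Duox2). Depth limited Reg1a, Reg3a and Nox1, which had at most 51, 2 and 10 reads in a library.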
